A study of Mus musculus with 2 samples.

Results

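The genes described here are those of sterol synthesis and its regulators: 28 genes taken by symbol from the mouse annotation, out of 43346 annotated genes in the quantification tables. They comprise 19 enzymes, listed in pathway order, 5 genes of the sterol sensing system and 4 genes of sterol transport and uptake. The rule uses pathway membership and no measured value. The study sequenced RNA of CH12.LX, an immortalized mouse B-cell lymphoma line of the strain B10.H-2aH-4bp/Wts, labelled female and as the mouse analog of the human B-lymphoid line GM12878. There is 1 group of 2 biological replicates, each from its own biosample, with no treatment, genotype or time point among the labels. Both libraries hold RNA above 200 bases with ERCC spike-ins, which are synthetic RNAs added in known amounts, and the labels call the assay total RNA-seq but the RNA polyA+. With no second condition, the results are levels, transcript use and the difference between the replicates, which describes these libraries and has no further replicate check.

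Cells build cholesterol from acetyl-CoA. The mevalonate pathway makes the isoprenoid units, 2 prenyl synthases join them, squalene is formed, oxidised and folded into lanosterol, and a set of oxidases, reductases and an isomerase turns lanosterol into cholesterol. SREBP-2 and SREBP-1, membrane-bound transcription factors encoded by Srebf2 and Srebf1, switch on these genes when sterol is scarce: SCAP escorts them from the endoplasmic reticulum to the Golgi for cleavage, and the INSIG proteins hold SCAP back when sterol is plentiful. Proliferating lymphocytes use the pathway for membranes and for the prenyl groups of small GTPases.

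The libraries held 24379174 and 23517901 counts assigned to annotated genes in replicates 1 and 2. Of the B-cell markers, 6 of 6 reached 1 TPM (a transcript level scaled for length and library size) in both replicates, with summed levels of 1239 TPM in replicate 1 and 1241 TPM in replicate 2. Of 10 markers of liver, steroid-making, T, myeloid, stromal, endothelial and red cells, 1 did: Cyp11a1, the enzyme that opens steroid synthesis from cholesterol, at 6.91 and 6.37 TPM. Those 10 summed to 8.24 and 7.61 TPM, with Cd3e and Hbb-bs at 0 counts in both libraries.

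Of the 28 genes, 27 reached 1 TPM in both replicates, a level that 25.4% of all annotated genes reached. All 19 enzymes were among them, with a median level of 61.4 TPM in replicate 1 and 46.6 TPM in replicate 2, against 16.0 and 15.8 TPM over the 11661 genes with a mean of 20 or more counts. The enzymes together took 1967 and 1592 TPM. Mylip, a ubiquitin ligase that lowers lipoprotein receptors, was the exception, with 1 count in each library. In replicate 1, a count of 3 would have been 0.0506 TPM for Mylip, so its level of 0.02 TPM lies under what this depth can show.

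**Figure D1:**
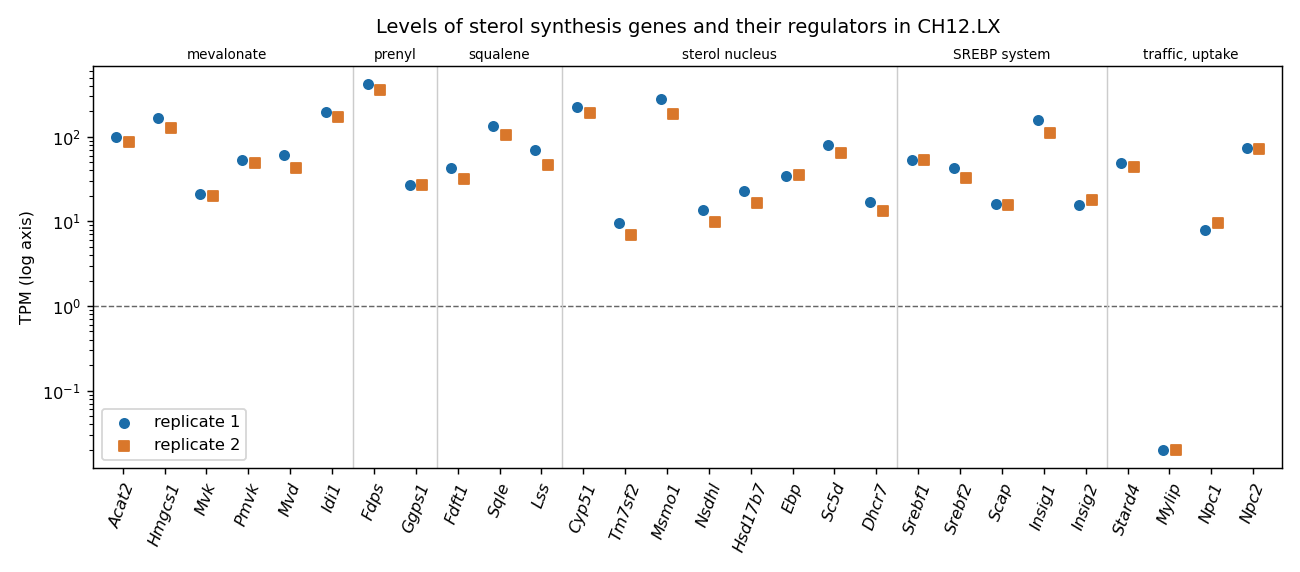
Level of each of the 28 genes in TPM (log axis) in pathway order, with 1 point for each replicate. Fdps is highest at 420.5 and 359.9 TPM, and Mylip lies at 0.02 TPM in both replicates.

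In the mevalonate branch, Idi1 and Hmgcs1 were highest and Mvk lowest. Acat2, the cytosolic thiolase that starts the pathway, had 98.5 TPM in replicate 1 and 87.5 TPM in replicate 2. Hmgcs1 (chromosome 13, 119690379 to 119708260, plus strand, GRCm38), the HMG-CoA synthase, had 166 and 126 TPM. Mevalonate kinase (Mvk) had 21.2 and 20.1 TPM, and the kinase after it, Pmvk, 53.2 and 48.8 TPM. Mvd, the decarboxylase that yields isopentenyl diphosphate, had 61.4 and 42.8 TPM, and was the branch member whose replicates lay furthest apart on a log scale. Idi1, the isomerase that makes the other isoprenoid unit, had 194 and 172 TPM. As deposited, 6 of 6 were higher in replicate 1, and with the ERCC spike-ins as scale 2 of 6 were.

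Both prenyl synthases were expressed, at levels far apart. Fdps (chromosome 3, 89093588 to 89101959, minus strand) makes farnesyl diphosphate, the branch point to sterols and to prenylated proteins. It had 420.5 TPM in replicate 1 and 359.9 TPM in replicate 2, the highest of the 28, and 96.9% of expressed genes lay below its mean. Ggps1, which lengthens farnesyl to geranylgeranyl diphosphate, had 27.1 and 26.8 TPM. The Fdps level was 15.5 times the Ggps1 level in replicate 1 and 13.4 times it in replicate 2. The deposited counts of Fdps, Acat2, Idi1, Fdft1 and Tm7sf2 were not whole, which shows that reads were divided among several features, so these 5 levels carry the error of that division. The close paralog of Acat2, Acat3, held 15.2 and 3.29 counts, and Idi2, the paralog of Idi1, held 0.

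From farnesyl diphosphate to lanosterol, Sqle stood above the enzymes on either side of it. Fdft1, the squalene synthase that commits farnesyl diphosphate to sterols, had 43.1 TPM in replicate 1 and 32.1 TPM in replicate 2. Squalene epoxidase (Sqle), a rate-limiting oxygen-dependent step, had 135 and 104 TPM. Lss, the cyclase that forms lanosterol, had 69.0 and 46.6 TPM. The ranges of the 3 genes did not overlap by gene TPM, and replicate 1 was the higher library for each, as deposited and with the ERCC spike-ins as scale. The leading coding transcript of Lss alone had 40.4 TPM in replicate 1 and 27.7 TPM in replicate 2, below Fdft1 in both libraries. The place of Lss above Fdft1 thus rests on its other transcripts.

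The 8 enzymes from lanosterol to cholesterol covered a wide range of levels, with Msmo1 and Cyp51 at the top and Tm7sf2 at the bottom. Msmo1, the oxidase that removes the methyl groups beside the sterol hydroxyl, had 276 TPM in replicate 1 and 187 TPM in replicate 2. Cyp51, the cytochrome P450 that demethylates lanosterol, had 227 and 192 TPM. Sc5d, a sterol desaturase, had 78.9 and 63.5 TPM. Ebp, the isomerase that shifts the ring double bond, had 34.2 and 35.7 TPM, as deposited the only synthesis enzyme lower in replicate 1, and with the ERCC spike-ins as scale 1 of 8 such enzymes. Hsd17b7, the ketosterol reductase, had 22.8 and 16.3 TPM, and its partner in demethylation Nsdhl had 13.7 and 9.87 TPM. Dhcr7, the reductase of the last step of one route, had 16.8 and 13.4 TPM. Tm7sf2, a ring reductase, was lowest of the enzymes at 9.44 and 6.95 TPM, from 178 and 139 counts. Lbr, a lamin B receptor of the nuclear envelope with the same reductase activity, had 109 and 104 TPM, which was 11.6 times the Tm7sf2 level in replicate 1 and 14.9 times it in replicate 2.

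Among the sensing genes, Insig1 was highest. Insig1 (chromosome 5, 28071363 to 28078662, plus strand), itself a target of SREBP, had 159 TPM in replicate 1 and 112 TPM in replicate 2. Insig2, which does the same holding job with less dependence on sterol supply, had 15.4 and 18.1 TPM, so that Insig1 stood at 10.3 and 6.17 times the Insig2 level. By the deposited posterior mean TPM, Insig2 had 29.2 and 36.2 TPM and Insig1 stood at 5.28 and 3.01 times it, and the deposited TPM of Insig2 in replicate 1 lay under its own lower bound of 16.3 TPM. Scap had 16.0 and 15.7 TPM, below Insig1 in both libraries. Srebf1 (chromosome 11, 60199089 to 60222581, minus strand) had 53.6 and 52.6 TPM, and Srebf2 (chromosome 15, 82147181 to 82205379, plus strand) had 43.2 and 32.7 TPM. By gene TPM, Srebf1 was above Srebf2 in both replicates, by ratios of 1.24 and 1.61. Coding transcripts held only 68.6% and 67.0% of Srebf1 TPM, against 100% for Srebf2. The leading coding transcript of Srebf1 alone had 20.8 and 23.4 TPM, below Srebf2 in both libraries. The place of Srebf1 above Srebf2 thus rests on its other transcripts.

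Of the transport genes, Npc2 was highest. Npc2, the soluble lysosomal protein that hands cholesterol on, had 74.1 TPM in replicate 1 and 71.3 TPM in replicate 2. Npc1, the membrane protein that receives it, had 7.81 and 9.47 TPM, so Npc2 stood at 9.49 and 7.53 times Npc1. The leading Npc1 transcript alone had 7.80 and 7.93 TPM. In replicate 2, 1.54 TPM of Npc1 came from 4 counts on a transcript of 352 bases. Stard4, a soluble sterol carrier and SREBP target, had 48.4 and 43.5 TPM. The Mylip level was 0.02 TPM in both.

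Ordered by mean TPM, the genes ran from Fdps, Msmo1, Cyp51, Idi1, Hmgcs1, Insig1, Sqle, Acat2, Npc2, Sc5d, Lss, Srebf1, Mvd and Pmvk to Stard4, Srebf2, Fdft1, Ebp, Ggps1, Mvk, Hsd17b7, Insig2, Scap, Dhcr7, Nsdhl, Npc1, Tm7sf2 and Mylip. The first 5 were in the top 10% of expressed genes, and 6 (Insig2, Scap, Dhcr7, Nsdhl, Npc1 and Tm7sf2) were in the lower 50%. Insig2 lay above 48.2% of expressed genes by TPM but above 65.5% by posterior mean TPM, under which the other 5 stayed in the lower 50%. Neighbours in this order were apart, with replicate ranges that did not overlap, after 10 genes: Fdps, Idi1, Sqle, Acat2, Pmvk, Stard4, Ebp, Ggps1, Nsdhl and Tm7sf2. The ranges of the other 17 neighbouring pairs overlapped. Set side by side within each library, 16 of all neighbouring pairs kept 1 order in both libraries, such as Cyp51 above Idi1 and Sc5d above Lss. The other 11 changed order between the libraries, among them Msmo1 and Cyp51, Npc2 and Sc5d, and Srebf1 and Mvd. For 9 genes the deposited TPM fell outside the file's own credibility bounds in at least 1 replicate (Hmgcs1, Idi1, Fdps, Sqle, Cyp51, Msmo1, Insig1, Insig2 and Npc2). Spans of 7 of the 28 overlapped another expressed gene: Mvd, Ggps1, Fdft1, Cyp51, Srebf1 and Npc1 on the opposite strand, and Tm7sf2 with Vps51 on its own strand.

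The deposited quantification lists 1 transcript for 10 of the genes and several for the other 18. Of those 18, 9 had 1 transcript with at least 90% of the gene's TPM as a mean of the replicates, against 28.7% of the 7563 expressed genes with several transcripts. The other 9 were Stard4, Insig2, Msmo1, Ebp, Dhcr7, Lss, Mvk, Tm7sf2 and Srebf1. In Stard4, Insig2 and Dhcr7 the leading transcript nonetheless held over 90% of the counts in both replicates. TPM divides by length, so a few reads on a short transcript weigh heavily there.

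**Figure D2:**
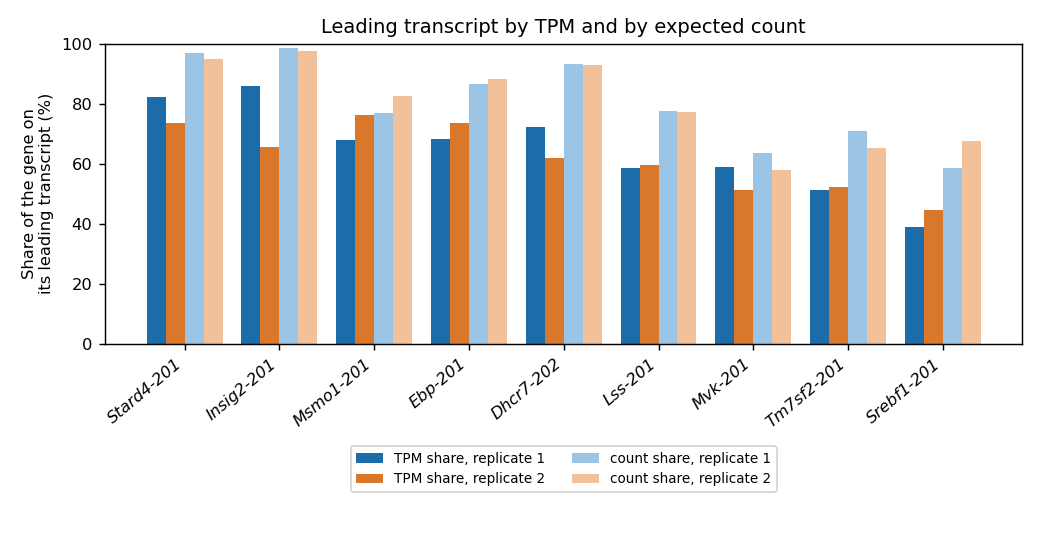
Share (percent) of gene TPM and of gene counts held by the leading transcript in each replicate, for the 9 genes whose leading transcript had under 90% of TPM. Genes with several transcripts that lie at or above 90% as a mean of both replicates are not drawn. By TPM, Srebf1 is lowest at 38.8% and 44.5%.

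Insig2, Dhcr7 and Npc1 each had a short transcript of this kind. The leading Insig2 transcript had 86.1% of gene TPM in replicate 1 and 65.8% in replicate 2, but 98.6% and 97.6% of counts. A retained-intron transcript of 334 bases (Insig2-206) held 0 counts in replicate 1 and 12.3 in replicate 2, and those few counts were entered as 5.49 TPM. The leading transcript itself had 13.3 and 11.9 TPM. Gene TPM of Insig2 was lower in replicate 1 (log2 difference -0.23), whereas the gene's count per total was higher there (0.15). For Dhcr7, a transcript of 361 bases with 7 and 9 counts took 14.4% and 24.2% of gene TPM. For Npc1, a transcript of 352 bases had 0 counts in replicate 1 and 4 in replicate 2, with 0% and 16.2% of TPM.

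Lss, Msmo1 and Ebp had sizeable shares on transcripts other than the leading one. For Lss the leading coding transcript had 58.5% of TPM in replicate 1 and 59.4% in replicate 2, and retained-intron transcripts 40.7% and 40.6%. By counts the retained-intron transcripts of Lss had 22.2% and 22.8%. Msmo1-206, a transcript annotated without a coding frame, held 28.4% and 20.02% of Msmo1 TPM, and 19.5% and 13.2% of its counts. The leading coding transcript of Msmo1 alone had 187 and 143 TPM. That was below the leading transcripts of Cyp51 (224 and 189 TPM) and Idi1 (190 and 169 TPM) in both libraries. The place of Msmo1 above these genes by mean TPM thus rests on its other transcripts. Ebp-204, a retained-intron transcript of 660 bases, held 26.5% and 17.6% of Ebp TPM but 9.67% and 6.06% of its counts. Transcript shares come from a model that divides shared reads, and the counts behind them are estimates.

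Srebf1 is transcribed from 2 starts that give SREBP-1a and SREBP-1c, which differ only in their first coding exon, and SREBP-1a has the longer activation domain. The coding sequences are shown from each start codon because this exon separates the protein forms. Capitals mark the first coding exon and lower case the following 30 bases, which both share. The SREBP-1a type exon (Srebf1-201) lies at chr11:60220453-60220543 and the SREBP-1c type exon (Srebf1-207) at chr11:60210336-60210354, minus strand, GRCm38.
Srebf1-201: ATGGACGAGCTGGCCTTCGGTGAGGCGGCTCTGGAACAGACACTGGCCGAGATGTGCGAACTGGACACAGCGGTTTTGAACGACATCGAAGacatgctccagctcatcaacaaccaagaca
Srebf1-207: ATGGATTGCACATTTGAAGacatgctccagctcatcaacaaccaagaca
The first coding exons are 91 and 19 bases long.

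By TPM the SREBP-1a type transcript stood above the SREBP-1c type in both libraries. Srebf1-201 had 20.8 TPM in replicate 1 and 23.4 TPM in replicate 2, and Srebf1-207 had 9.87 and 8.73 TPM. The upstream start held 41.7% ± 4.03 of Srebf1 TPM and the downstream start 17.5% ± 1.28 (SD, n = 2), with the rest on transcripts of neither start. Srebf1-201 stood at 2.11 and 2.68 times Srebf1-207, and the ranges of the 2 transcripts did not overlap. By counts, 1773 and 1913 were assigned to Srebf1-201 against 610 and 517 to Srebf1-207, ratios of 2.91 and 3.70. The 2 annotated transcripts also differ in where they end. Srebf1-201 is 4299 bases long and ends at 60199089, and Srebf1-207 is 3177 bases long and ends at 60200463. Reads past the end of Srebf1-207 cannot be assigned to it, whichever start they came from, which limits the ratios by TPM and by counts.

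Of the 28 genes, 23 were matched to a promoter sequence in RefSeq (GRCm38.p6), searched on both strands over the 250 bases before the start. Fdps, Fdft1, Sqle, Stard4 and Npc1 were not matched. The letters TCACNCCA, the core of a classic SREBP site, were in 3 of the 23 windows (Hmgcs1, Msmo1 and Srebf2), against 3.09% of the windows of 8029 expressed genes. CCAAT, the letters bound by NF-Y, a partner of SREBP, was in 18 of 23 against 37.6%, and at least 2 copies were in 12 of 23 against 14.9%. GGGCGG, the letters bound by Sp1, was in 21 of 23 against 60.8%. Matches of different motifs overlapped in 0 cases. Acat2, Pmvk, Srebf1, Scap and Insig2 had no CCAAT in this window, and Mvk had 5. In Msmo1, Pmvk and Dhcr7 the RefSeq start lay 214, 453 and 588 bases downstream of the start of the leading transcript. The Msmo1 match to TCACNCCA, 177 bases before the RefSeq start, thus lay inside the span of that transcript. The whole windows of Pmvk and Dhcr7 also lay inside the spans of their leading transcripts. In Idi1 and Cyp51 the RefSeq start lay 105 and 49 bases downstream. All CCAAT matches of Idi1, Cyp51 and Msmo1 lay inside the spans of their leading transcripts, as did a CCAAT match in each of Hsd17b7 and Npc2. A match describes letters only, and binding was not measured.

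The promoter stretches of Hmgcs1 and Srebf2 are shown because they hold TCACNCCA and a CCAAT box close together upstream of the transcript used here. They lie at chr13:119690154-119690293 for Hmgcs1 and chr15:82147047-82147180 for Srebf2, both on the plus strand (RefSeq, GRCm38.p6). Capitals mark TCACCCCA and ATTGG, which is CCAAT read on the other strand.
Hmgcs1: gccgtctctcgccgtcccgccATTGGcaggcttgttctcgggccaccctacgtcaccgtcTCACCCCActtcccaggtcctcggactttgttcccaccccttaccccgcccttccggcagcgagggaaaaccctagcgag
Srebf2: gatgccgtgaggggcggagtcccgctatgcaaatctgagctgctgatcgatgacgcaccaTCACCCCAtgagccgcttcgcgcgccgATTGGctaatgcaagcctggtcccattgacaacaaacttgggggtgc
TCACCCCA begins 137 bases before the RefSeq start in Hmgcs1 and 162 bases before it in Srebf2. Hmgcs1 had 166 TPM in replicate 1 and 126 TPM in replicate 2, and Srebf2 had 43.2 and 32.7 TPM, so the genes that carry these letters were not alike in level.

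Between the replicates, 24 of the 27 tested genes were higher in replicate 1 by TPM, against 50.2% of all tested genes, and the median log2 difference was 0.24 over the sterol genes and 0.0022 over all genes. Scaled to the ERCC spike-ins, all genes shifted down to a median of -0.26 and the sterol genes to -0.045, so that 13 of 27 lay above 0 but 23 of 27 above the median of all genes. The differences that follow use deposited TPM, where that median lies near 0, on the scale log2(TPM + 0.5), replicate 1 minus replicate 2. In bulk RNA, fewer cells with a transcript and less of it per cell cannot be told apart. No gene of the 28 passed 1.5-fold, which 2.69% of all tested genes did. At a lower threshold of 25% difference, 11 were higher in replicate 1, against 8.55% of all genes, and 0 were lower, against 4.85%. On the ERCC scale itself, Lss was highest at 0.28, under that threshold. Ebp, Insig2 and Npc1 passed it in the other direction, at -0.34, -0.50 and -0.53. The shares of all genes past 25% were not computed on that scale. Taken from the median of all genes, the count of sterol genes past 25% upward was 11 under every scaling tried, and 12 at a pseudocount of 0.1. The ERCC scale multiplies each library by 1 number, which taking off the median removes but for the pseudocount. The edgeR and DESeq2 factors used on counts differ from each other in the same way. Equal counts under these settings are therefore no separate check. Among the 20 sterol genes with a mean of 1000 or more counts, where counting error is small, 9 passed the 25% threshold, against 2.88% of the 4722 genes that deep.

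**Figure D3:**
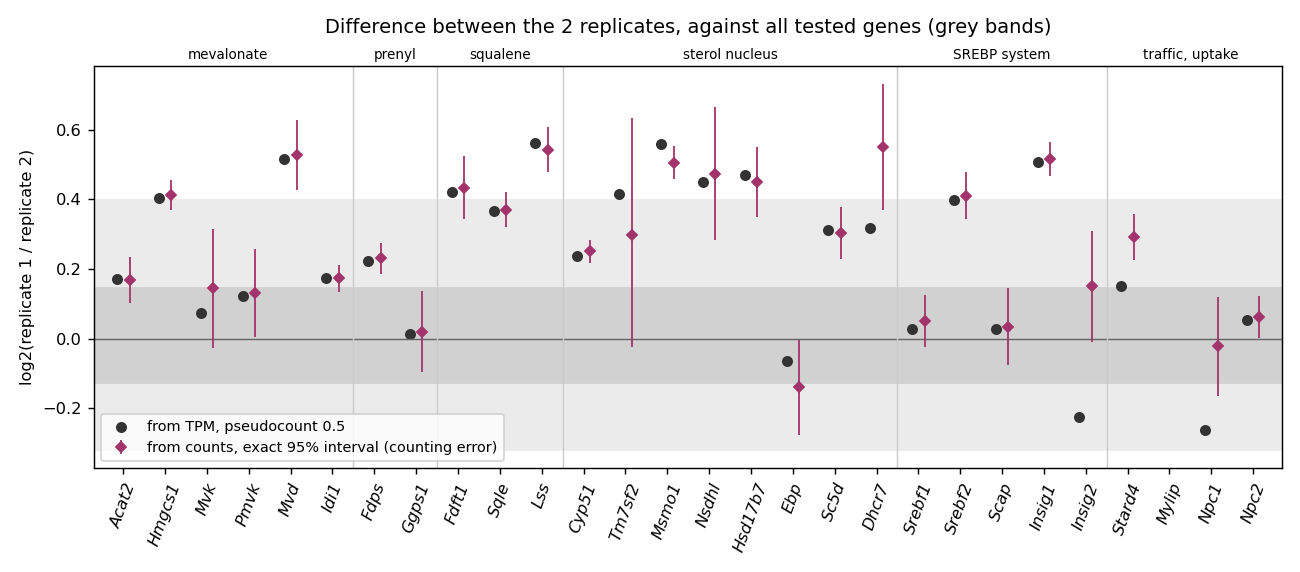
Difference between the replicates for the 27 tested genes on a log2 scale, replicate 1 minus replicate 2, as circles from TPM + 0.5 and as diamonds from counts with their exact 95% counting interval, and with grey bands for the middle 50% and 90% of all tested genes by TPM. By TPM, Lss and Msmo1 lie highest at 0.56, above the wider band, and Npc1 lowest at -0.26. By counts, Npc1 lies at -0.022. With the ERCC spike-ins as scale the values shift down with the median of all genes (-0.26).

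The differences were unequal along the pathway. All 3 steps from farnesyl diphosphate to lanosterol differed by over 25%, and the median over them was 0.42. Lss had 4827 counts in replicate 1 and 3196 in replicate 2, a ratio of 1.46 after scaling by total gene counts, with an exact 95% interval of 1.39 to 1.52, and 97.9% of tested genes had a smaller difference. Such an interval covers counting error only and compares these libraries. Fdft1 had 2375 and 1696 counts, a ratio of 1.35 (1.27 to 1.44). Sqle had 7125 and 5315 counts, a ratio of 1.29 (1.248 to 1.34). For all 3 the interval lay above 1.

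In the last stretch, 4 of 8 differed by over 25%: Msmo1, Hsd17b7, Nsdhl and Tm7sf2. Msmo1 had 9286 counts in replicate 1 and 6307 in replicate 2, a ratio of 1.42 (1.38 to 1.47). Hsd17b7 had 1969 and 1391 counts, a ratio of 1.37 (1.27 to 1.46). Nsdhl had 554 and 385 counts, a ratio of 1.39 (1.22 to 1.59). The 178 and 139 counts of Tm7sf2 gave a ratio of 1.23 whose interval of 0.984 to 1.55 includes 1. Dhcr7 had 633 and 417 counts, a ratio of 1.46 (1.29 to 1.66), although its TPM difference was 0.32. Cyp51 had 17401 and 14111 counts, a ratio of 1.19 (1.16 to 1.22), and Sc5d 3299 and 2580 counts, a ratio of 1.23 (1.17 to 1.30). Thus 6 of the 8 separated upward beyond counting error. Ebp went the other way, with 855 and 909 counts and a ratio of 0.907 (0.826 to 0.997).

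In the mevalonate branch, Mvd and Hmgcs1 differed by over 25% and the median was 0.17. Mvd had 1974 counts in replicate 1 and 1321 in replicate 2, a ratio of 1.44 (1.34 to 1.55). Hmgcs1 had 10452 and 7577 counts, a ratio of 1.33 (1.29 to 1.37). The intervals of Acat2, Idi1 and Pmvk lay above 1 at smaller ratios of 1.12, 1.13 and 1.10, and that of Mvk, at a ratio of 1.11 (0.981 to 1.245), included 1. Fdps had a ratio of 1.17 (1.14 to 1.21) and Ggps1 of 1.01 (0.935 to 1.10).

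The sensing genes divided. Insig1 had 8212 counts in replicate 1 and 5539 in replicate 2, a ratio of 1.43 (1.38 to 1.48). Srebf2 had 4307 and 3125 counts, a ratio of 1.33 (1.27 to 1.39). Srebf1 with 3034 and 2828 counts had a ratio of 1.03 (0.983 to 1.09), and Scap with 1356 and 1277 counts a ratio of 1.02 (0.948 to 1.11), so the intervals of both include 1. Insig2 had 696 and 605 counts, a ratio of 1.11 (0.994 to 1.24), which also includes 1. Within the SREBP system, the inhibitor Insig1 and the factor Srebf2 were thus the genes beyond counting error. Of the transport genes, Stard4 had a ratio of 1.22 (1.17 to 1.28), Npc2 of 1.04 (1.00 to 1.09) and Npc1 of 0.985 (0.893 to 1.09). Over all 27 tested genes, the interval lay above 1 for 19, against 20.6% of all tested genes, and below 1 for 1, against 19.1%. All count-ratio intervals given here are scaled by total gene counts, and the ERCC scale was not applied to them. By TPM on the ERCC scale, Acat2, Pmvk, Idi1, Fdps, Cyp51, Stard4 and Npc2 of these 19 had differences below 0. The others of the 19 stayed above it. For 5 genes (Tm7sf2, Dhcr7, Insig2, Stard4 and Npc1) TPM and counts gave differences more than 0.1 apart on the log2 scale.

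Lists of genes that work beside the pathway differed among themselves. Over 66 such genes, 55 reached 1 TPM in both replicates, and over the 56 tested the median log2 difference was 0.020, with 4 more than 25% higher in replicate 1, against 8.55% of all tested genes. Of these 4, 3 were fatty acid genes. The 11 genes of SREBP cleavage and of sterol-dependent degradation were all expressed, with a median difference of 0.0097 and 0 past that threshold. Their highest was Vcp, the ATPase that extracts proteins for degradation, at 154 TPM in replicate 1 and 155 TPM in replicate 2, and their lowest Mbtps2, a protease that cuts SREBP, at 9.48 and 8.71 TPM. The 14 genes that use isoprenoids for protein prenylation, dolichol and ubiquinone were all expressed as well, with a median of -0.00077. Rabggtb, a subunit of the Rab prenyl transferase, was highest at 198 and 229 TPM and Fntb, the farnesyl transferase beta subunit, lowest at 4.30 and 3.70 TPM.

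**Figure D4:**
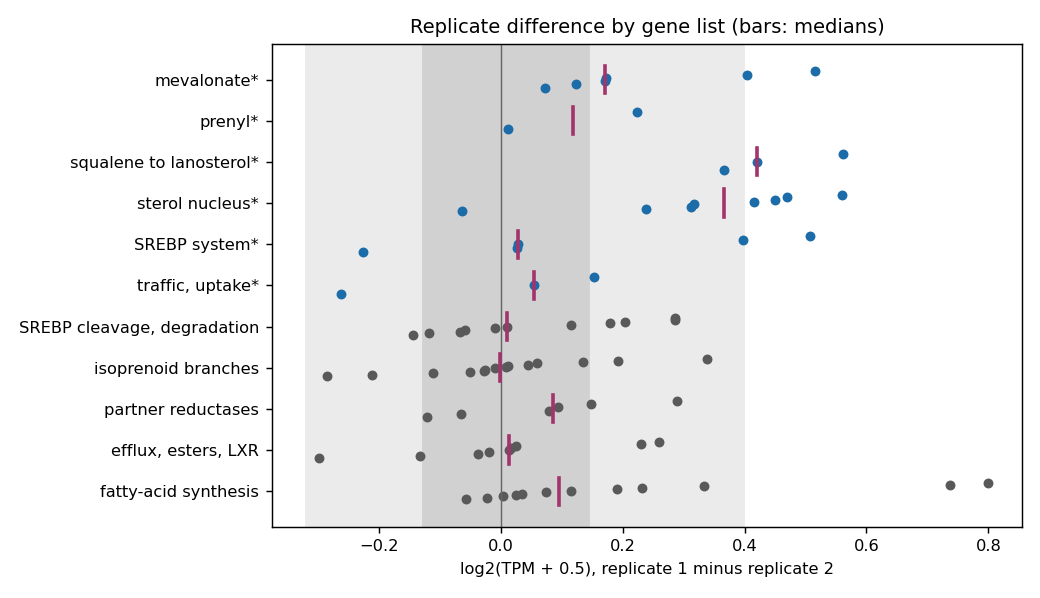
Differences between the replicates on the log2(TPM + 0.5) scale, replicate 1 minus replicate 2, for the tested genes of each list, with 1 point for each gene, a bar at the median, asterisks on the lists of sterol genes and grey bands for the middle 50% and 90% of all tested genes. The median is 0.42 for squalene to lanosterol, 0.37 for lanosterol to cholesterol (sterol nucleus) and 0.0097 for SREBP cleavage and degradation. With the ERCC spike-ins as scale all values shift down together with the median of all genes (-0.26).

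Of 12 fatty acid genes of the SREBP-1 branch, 11 were expressed. Their count ratios had an interval above 1 for 7 and below 1 for 0, against 20.6% and 19.1% of all tested genes. The median log2 difference was 0.22 by counts and 0.095 by TPM, against 0.29 and 0.24 for the sterol genes. By TPM 3 of the 12 were more than 25% higher in replicate 1, and 2 of them (Scd2 and Fads2) passed 1.5-fold, which 0 sterol genes did. Fads2 held only 39 counts in replicate 1 and 16 in replicate 2, and the interval of its ratio was wide (1.28 to 4.51). Acly, which supplies cytosolic acetyl-CoA, was highest at 213 TPM in replicate 1 and 187 TPM in replicate 2, and Fads2, a fatty acid desaturase, lowest at 1.45 and 0.62 TPM. Of 6 other genes tied to sterol reduction and binding, Tmem97, a sterol-binding membrane protein, was highest at 267 and 241 TPM and Por, the electron donor of Cyp51, lowest at 13.4 and 12.5 TPM. Of 11 genes of sterol efflux, esterification and LXR signalling, 9 were expressed. Lipa, the lysosomal lipase, was highest at 29.2 and 31.99 TPM, and Soat2, a cholesterol acyltransferase, lowest at 0.22 and 0.08 TPM. Of 5 oxysterol enzymes only Hsd3b7 was expressed, at 5.05 and 4.35 TPM, while Ch25h, Cyp27a1, Cyp7b1 and Cyp46a1 held 0 counts in both libraries. Among 7 paralogs of the sterol genes, 3 were expressed, with Acat1, the mitochondrial thiolase, highest at 48.1 and 51.1 TPM and Idi2 at 0 counts in both.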

How the data were processed

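RNA of CH12.LX cells was sequenced by ENCODE in 1 group of 2 biological replicates. Per the file headers, the deposited gene and transcript tables hold expected counts, TPM, FPKM, posterior mean counts and TPM, credibility bounds whose level is not stated, and the percent of a gene's TPM held by each transcript (an isoform percent). The authors estimated these from reads on mm10, per the labels. The aligner, quantifier and strand setting are not stated in the sources available for this work. FPKM as deposited by the authors served in 1 alternative only.

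Symbols, coordinates and transcript names came from GENCODE M21 (GRCm38), matched by gene ID without version, and promoters from RefSeq (GRCm38.p6). The leading transcript of 10 of the 28 genes has another length in M21 than in the deposited quantification. For Sc5d it is 4787 against 2249 bases and for Ggps1 4244 against 2367. Deposited TPM rests on the deposited lengths. The 28 genes and the other gene lists were chosen with earlier results of these data known. All 28 genes are named. Of the other lists, the highest and lowest genes by mean TPM and those at 0 counts are named.

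Expressed means at least 1 TPM in both replicates. Differences are log2(TPM + 0.5), replicate 1 minus replicate 2, over genes whose expected count averaged at least 20. ERCC spike-ins, at 0.320% and 0.257% of all counts, stayed out of gene totals and served as 1 alternative scale. Intervals of count ratios are exact (Clopper-Pearson, 95%) on rounded counts scaled by total gene counts. The interval code was tested on simulated data. No p-values were computed, since each side of the comparison is 1 library. Alternatives used edgeR 4.0.16 and DESeq2 1.42.0 factors in R 4.3.3. Other steps used Python 3.11.15 with scipy 1.17.1. The share of genes at 1000 or more counts that differed by over 25% was added after seeing the data.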

Additional observations from a re-analysis of the deposited data

How the results depend on the processing

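Over 38 alternative settings of 7 results, 34 left a result with its direction and close to its value (a count within 1.5 times, a level within 1 SD of the replicates). Some of these outcomes were fixed in advance. With 2 replicates, the value of either always lies within 1 SD of their mean. Leaving out 1 replicate also cannot lower the number of genes expressed. The median level of the 19 enzymes was 52.1 TPM as a mean of the replicates (46.6 to 61.4 TPM when either replicate was left out) and 68.5 TPM when TPM was rescaled over protein-coding nuclear genes. By deposited TPM, the number of sterol genes past the fold threshold was 0 at 1.5-fold and 11 at a 25% difference. The Srebf1 share on the upstream start was 41.7% of TPM (38.8% to 44.5% when either replicate was left out) and 63.0% of counts. The median log2 difference of 0.24 turned to -0.045 with the ERCC spike-ins as scale, where the median of all genes was -0.26. The cause of that shift was not tested. Under the other settings the median lay between 0.23 and 0.27. The number of genes beyond counting error was 20, with 18 under TMM or DESeq2 factors and 17 with a 99% interval. It was not computed with the ERCC spike-ins as scale. The posterior mean ratios and places and the order within each library were added after seeing the data. No paired analysis was possible because there is only 1 group. Depth limits the genes of few counts: Mylip, at 1 count in each library, could not be compared.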

Other observations

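Scd2, a stearoyl-CoA desaturase of the SREBP-1 branch, differed more between the replicates than any of the 28 sterol genes, with 157 TPM in replicate 1 and 94.0 TPM in replicate 2. Its counts were 17162 and 9861, a ratio of 1.68 (exact 95% interval 1.64 to 1.72), while Scd1, at 176 and 150 TPM, had a ratio of 1.18 (1.15 to 1.21). Scd1 and Scd2 are close paralogs, and the deposited counts of both were not whole. Both genes are named after their values were seen.

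Cyp11a1, which cuts the side chain of cholesterol, had 290 counts in replicate 1 and 256 in replicate 2, at 6.91 and 6.37 TPM, while Star, the carrier that brings cholesterol to it in steroid-making cells, had 0.54 and 0.78 TPM. Nr1h3, the LXR alpha gene, had 4 and 5 counts, whereas Nr1h2, the LXR beta gene, had 362 and 296 counts. These genes too were named with their values seen.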
